A study of Homo sapiens with 6 samples.

Results

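Messenger RNAs of a single gene can begin at different start sites, join different exons or end at different poly(A) sites, and such transcripts may encode the same protein or proteins that differ at an end or by a short stretch. A count summed over a gene does not show such a difference. SLC4A1AP, PCSK6, LTN1 and KIAA0040 are 4 genes whose summed counts were close between HCT116 cells treated with si-AC010789.1 and with siRNA-NC, while the transcript that carried the counts differed between the groups. They were selected on the transcript counts of these same 6 libraries, by name, so the differences in transcript shares and the steadiness of the sums are how the genes were chosen, and they are given below as a description without a test. The 4 genes are among 18768 genes with counts, and 36 of their 40 annotated transcripts are among the 98886 transcripts listed.

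HCT116 is a human colorectal carcinoma cell line. Cells of both groups carried a transfected short interfering RNA. It was directed against the long noncoding RNA AC010789.1 (si-AC010789.1, n = 3 libraries) or was a negative control (siRNA-NC, n = 3 libraries). TruSeq libraries were made from extracted total RNA and read as mRNA profiles, to see which mRNAs differed after AC010789.1 was silenced. The time after transfection is not given. The study calls the replicates biological repeats and names differing cell generations as a possible source of the spread within a group. The level of AC010789.1 itself was not analysed here, and the group labels were therefore not checked against the targeted RNA.

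Between 11277222 and 13443866 counts per library were available. Of 12 colorectal epithelial markers, 3 (EPCAM, KRT8 and KRT18) had at least 10 counts in each library and 5 (KRT19, KRT20, CDX1, CDX2 and VIL1) had none, while CDH1 had 8 to 13. The summed level of the 12 was between 1000 and 1250 CPM (counts scaled to a common library size) with siRNA-NC and between 806 and 1070 CPM with si-AC010789.1. Nearly all of it came from KRT8 (5558 to 11278 counts) and KRT18 (4395 to 6129 counts). CLDN4 had 290, 298 and 326 counts with siRNA-NC and 331, 4 and 22 with si-AC010789.1. Of 6 fibroblast markers, 4 had at least 10 counts in each library, among them COL1A1 with 426 to 616 counts, while COL1A2 and LUM had none; the summed level was 59.7 to 68.7 CPM with siRNA-NC and 63.6 to 69.0 CPM with si-AC010789.1. None of 6 leukocyte markers and 1 of 4 endothelial markers (CDH5) reached 10 counts in each library, with summed levels of at most 2.51 CPM. The study detected E-cadherin, the product of CDH1, in HCT116 cells by western blot and immunofluorescence, while CDH1 had few counts here. These marker counts therefore do not establish an epithelial identity. That the cells are HCT116 is taken from the sample titles and was not tested. The part of these markers in the results was not tested.

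The 4 genes have distinct roles. SLC4A1AP encodes kanadaptin, a nuclear protein first described as a binding partner of the kidney form of the SLC4A1 anion exchanger. PCSK6 encodes PACE4, a secreted serine protease of the proprotein convertase family that cleaves precursor proteins, growth factors among them, after basic residues. LTN1 encodes listerin, the E3 ubiquitin ligase of ribosome-associated quality control, which ubiquitinates unfinished peptides on the large ribosomal subunit after a stalled ribosome has split. KIAA0040 encodes a small protein whose function is not established. In each gene, the transcript whose mean share of the gene sum was most above siRNA-NC in si-AC010789.1 is called the rising transcript, and the one most below is called the falling transcript. These are names only. A share is the count of a transcript divided by the summed count of all listed transcripts of its gene in the same library.

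The annotated sequences show what separates the rising from the falling transcript. The 4 pairs differ in 3 ways, at the start, inside the coding sequence and at the end of the RNA. In SLC4A1AP and LTN1 the pair differs at the 5′ end, and each transcript has its own annotated start codon. The first 30 coding bases (GENCODE v29, GRCh38, written 5′ to 3′ on the transcript) are shown with the start codon in capitals.
SLC4A1AP ENST00000613058 (falling), chr2:27663753-27663782, plus strand: ATGttagcaccacttcgcaacgctccaggt
SLC4A1AP ENST00000618046 (rising), chr2:27663915-27663944, plus strand: ATGgctgacattctctctcagtcagagacc
LTN1 ENST00000614971 (falling), chr21:28992914-28992943, minus strand: ATGgacagggtgggtggcggaaaagggccc
LTN1 ENST00000361371 (rising), chr21:28992776-28992805, minus strand: ATGggcgggaagaacaagcagcgaactaaa
The start codon of the rising SLC4A1AP transcript is codon 55 of the coding sequence of the falling one, in the same frame, so the annotated protein lacks the first 54 residues and is otherwise the same. In LTN1 the start codon of the rising transcript is codon 47 of the longer coding sequence, also in frame, and the first 46 residues are lacking.

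In PCSK6 the pair differs inside the coding sequence, by an exon of 39 nt (exon 15 of 22) that adds 13 codons without a change of frame. Both PCSK6 transcripts share their start codon and stop in the same exon.

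In KIAA0040 the rising and falling transcripts have the same coding sequence of 297 nt, and a further transcript of the gene, ENST00000619513, is annotated with another one of 459 nt. Their first 30 coding bases are shown with the start codon in capitals.
KIAA0040 ENST00000423313 (rising) and ENST00000545251 (falling), chr1:175160984-175161013, minus strand: ATGgagagaatcagtgccttcttcagctct
KIAA0040 ENST00000619513, chr1:175160601-175160630, minus strand: ATGcactatgtccatgtccacagagtaact
The rising transcript has an additional noncoding exon of 74 nt (chr1:175177611-175177684) and a 3′ end 1966 nt further downstream.

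**Figure D1:**
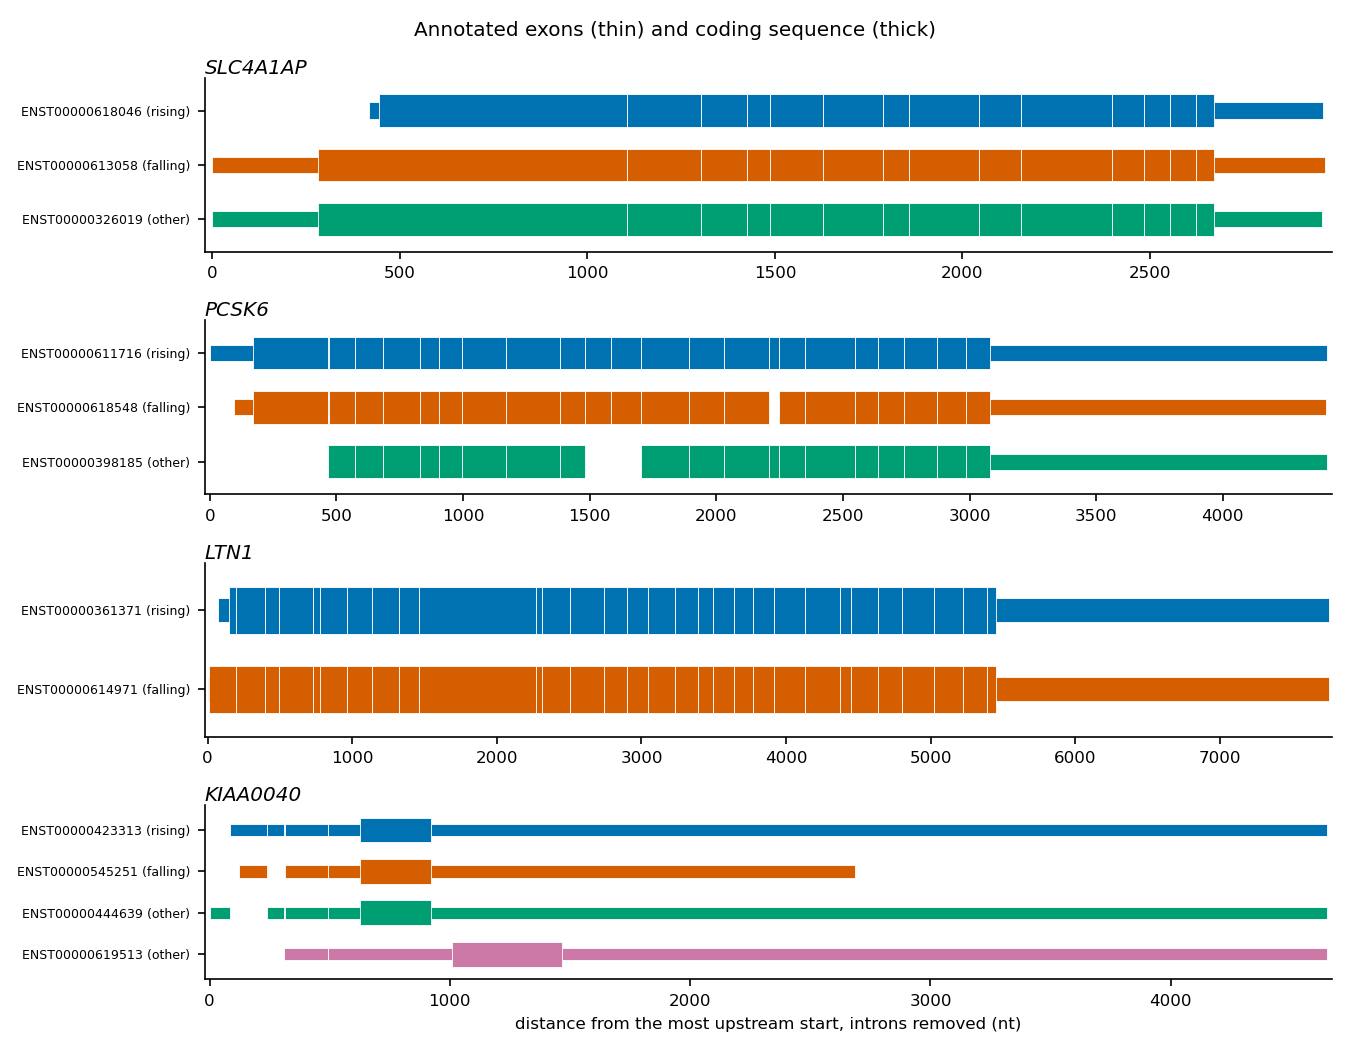
Annotated exons (thin bars) and coding sequence (thick bars) of the transcripts described in full, with introns removed; the x axis gives the distance in nt from the most upstream start of the transcripts drawn for each gene. The rising transcript starts 418 nt downstream of the falling one in SLC4A1AP and 71 nt downstream in LTN1, contains an exon of 39 nt in PCSK6 that the falling one lacks, and ends 1966 nt further in KIAA0040.

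SLC4A1AP (ENSG00000163798.13, chr2:27663471-27694976, plus strand) had the most complete exchange. The rising transcript, ENST00000618046, had 13, 8 and 7 counts with siRNA-NC and 693, 826 and 785 counts with si-AC010789.1 (replicates 1, 2 and 3 here and throughout). Its share of the gene sum was 1.24% ± 0.34 with siRNA-NC and 98.0% ± 0.365 with si-AC010789.1 (SD, n = 3 each). All 3 si-AC010789.1 libraries were high and all 3 siRNA-NC libraries low, with 96.1 percentage points between the lowest si-AC010789.1 and the highest siRNA-NC share.

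The falling transcript, ENST00000613058, had 775, 536 and 533 counts with siRNA-NC against 6, 13 and 10 with si-AC010789.1, and its share was 82.4% ± 12.6 against 1.21% ± 0.345. The siRNA-NC libraries were not alike: replicate 1 stood at 96.9% and replicates 2 and 3 at 76.1% and 74.0%. The remainder in replicates 2 and 3 lay mostly in ENST00000326019, which had 8, 106 and 142 counts with siRNA-NC but 1 count in every si-AC010789.1 library. That transcript has the same coding sequence as the falling one and differs from it by 7 bases at the 3′ end, and the shares of the 2 groups were separated by only 0.858 percentage points.

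Summed by annotated coding sequence, the siRNA-NC libraries were closer to each other. The coding sequence of 2388 nt (796 codons) that both of these transcripts carry held 783, 642 and 675 counts with siRNA-NC and 7, 14 and 11 with si-AC010789.1, a share of 94.3% ± 3.37 against 1.34% ± 0.333. The coding sequence of 2226 nt (742 codons) is carried by the rising transcript alone. ENST00000613517, with a coding sequence of 819 nt, had 0, 37 and 29 counts with siRNA-NC and was at 0 in the si-AC010789.1 libraries, where a count of 0 allows a share of up to 0.426%, 0.355% and 0.374%. A retained-intron transcript, ENST00000492196, had between 4 and 17 counts in every library, and its shares overlapped.

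The gene sum of SLC4A1AP was 800, 704 and 720 counts with siRNA-NC and 704, 844 and 803 with si-AC010789.1. Scaled to library size, this was 59.3 ± 10.0 CPM against 64.6 ± 2.99 CPM, with overlapping groups and a fitted log2 fold change of 0.125 (standard error 0.123). In such bulk libraries a smaller number of cells that use a transcript and less of it per cell cannot be told apart. The rising and the falling transcript share all 13 splice junctions, and no base of the rising one is absent from the falling one. The falling transcript has 422 bases that the rising one lacks, 418 of them at the 5′ end, where ENST00000326019 has them too. Of these 422 bases, 370 also lie in exons of SUPT7L, a subunit gene of a histone acetyltransferase complex that is transcribed from the opposite strand. Reads from the 2 genes cannot be told apart in that stretch unless the strand was used in counting, which is not given. The summed counts of SUPT7L were 660, 792 and 759 with siRNA-NC and 683, 713 and 695 with si-AC010789.1 (log2 fold change −0.019, standard error 0.0592, adjusted p = 0.908 in edgeR's quasi-likelihood test over all genes).

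LTN1 (ENSG00000198862.13, chr21:28928144-28992956, minus strand) also differed at its start. The rising transcript, ENST00000361371, had 31, 40 and 40 counts with siRNA-NC and 410, 457 and 444 with si-AC010789.1. Its share was 4.03% ± 0.207 with siRNA-NC and 50.1% ± 0.12 with si-AC010789.1 (SD, n = 3 each). The 3 si-AC010789.1 shares were 50.18%, 50% and 50.23%, and the groups were 45.8 percentage points apart at their closest.

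The falling transcript, ENST00000614971, had 748, 845 and 766 counts with siRNA-NC and 343, 338 and 365 with si-AC010789.1, a share of 86.3% ± 6.41 against 40.1% ± 2.71. It remained a large part of the LTN1 counts with si-AC010789.1, unlike the falling transcript of SLC4A1AP. ENST00000389194 has the same coding sequence and lacks only the first 7 bases of the falling transcript, and its 36, 44 and 156 counts with siRNA-NC overlapped with 56, 105 and 58 with si-AC010789.1. The lower share of the falling transcript in siRNA-NC replicate 3 (79.1%, against 91.6% and 88.1%) was met by the higher one of ENST00000389194 there (16.1%, against 4.41% and 4.59%).

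The coding sequence of 5436 nt (1812 codons), carried by these last transcripts, accounted for 94.6% ± 1.71 of LTN1 counts with siRNA-NC and 48.4% ± 0.498 with si-AC010789.1. The coding sequence of 5298 nt (1766 codons) made up nearly all of the rest with si-AC010789.1. The other 4 listed LTN1 transcripts, among them a pair of retained-intron transcripts and 1 annotated for nonsense-mediated decay, had at most 16 counts in any library, and the shares of the groups overlapped for each.

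The LTN1 sum was the steadiest of the 4, with 817, 959 and 968 counts with siRNA-NC and 817, 914 and 884 with si-AC010789.1. It came to 72.4 ± 0.161 CPM against 71.98 ± 0.9 CPM (log2 fold change −0.0092, standard error 0.0506), and the groups overlapped. The rising and falling transcripts together held 90.3% of the sum with siRNA-NC and 90.2% with si-AC010789.1. They share all 29 splice junctions and the same 3′ end, and the falling transcript has 71 bases at the 5′ end that the rising one lacks. ENST00000389194 lacks only the first 7 of these bases. As in SLC4A1AP, no base is found in the rising transcript only, so the counts given to it rest on reads that the longer transcript also contains.

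PCSK6 (ENSG00000140479.16, chr15:101297142-101525202, minus strand) has the most listed transcripts, 18 of 21 annotated. The rising transcript, ENST00000611716, had 1 count in each siRNA-NC library and 199, 369 and 357 counts with si-AC010789.1. Its share was 0.0593% ± 0.00972 with siRNA-NC and 19.6% ± 5.63 with si-AC010789.1 (SD, n = 3 each). Replicate 1 of si-AC010789.1 was lower, at 13.1%, than replicates 2 and 3 at 22.4% and 23.3%, and each was far from the siRNA-NC libraries.

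The falling transcript, ENST00000618548, was the most abundant in every library, with 1139, 1559 and 1456 counts with siRNA-NC and 875, 865 and 735 with si-AC010789.1. Its share was 80.7% ± 0.531 against 52.6% ± 4.84, and the groups were 22.5 percentage points apart at their closest. Another transcript, ENST00000398185, had 20, 19 and 17 counts with siRNA-NC and 232, 184 and 121 with si-AC010789.1, a share of 1.11% ± 0.256 against 11.4% ± 3.70. It also holds the exon of 39 nt, but its annotation lacks a start codon and begins inside the coding sequence. It further lacks internal coding exons that both the rising and the falling transcript hold, and 3 of its junctions are absent from the falling one. The 3 si-AC010789.1 libraries had 15.3%, 11.1% and 7.88% of it, so replicate 1 held the highest share of ENST00000398185 and the lowest of the rising transcript.

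ENST00000622483, whose coding sequence of 2925 nt ends elsewhere, had lower counts with si-AC010789.1 (42, 34 and 43) than with siRNA-NC (83, 105 and 104), with shares of 2.54% ± 0.417 and 5.69% ± 0.197 that did not overlap. ENST00000622483 has 20 exons and 3132 nt, while ENST00000619160, with the same annotated ends, has 19 exons and 3093 nt. Their coding sequences, of 2925 and 2886 nt, also differ by 39 nt. ENST00000622483 has 2 junctions that the falling transcript lacks. By these lengths and junctions its additional exon is most likely the one of 39 nt, though its coordinates were not compared. A transcript with that exon was then lower with si-AC010789.1, so transcripts with that exon did not all rise. The shares of the other 14 listed PCSK6 transcripts overlapped, and each of them had at most 138 counts in any library. The rising and the falling transcript share 19 junctions, with 2 found in the rising and 1 in the falling transcript only. The rising one has 140 bases that the falling one lacks, of which 39 are the exon and 95 a longer 5′ end. Exons of PCSK6 overlap those of AC023024.1 on the opposite strand, which holds 6 of these 140 bases, and of AC023024.2 on the same strand, and neither had counts here.

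The PCSK6 sum was 1422, 1921 and 1804 counts with siRNA-NC and 1520, 1650 and 1535 with si-AC010789.1, or 135 ± 9.41 CPM against 130 ± 4.64 CPM. The groups overlapped, with a log2 fold change of −0.063 (standard error 0.0649).

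KIAA0040 (ENSG00000235750.9, chr1:175156987-175192999, minus strand) differed outside its coding sequence. The rising transcript, ENST00000423313, had 50, 50 and 66 counts with siRNA-NC and 605, 601 and 528 with si-AC010789.1, a share of 3.56% ± 0.441 against 40.6% ± 5.76 (SD, n = 3 each). The falling transcript, ENST00000545251, had 494, 610 and 828 counts with siRNA-NC and 27, 36 and 29 with si-AC010789.1, a share of 41.0% ± 7.22 against 2.14% ± 0.207. The groups were separate for both, by 31.6 and 33.9 percentage points.

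Since both transcripts carry the coding sequence of 297 nt (99 codons), the share of that coding sequence hardly differed. Together with ENST00000444639, which has it too, it held 691, 773 and 987 counts with siRNA-NC and 735, 818 and 720 with si-AC010789.1. This was 52.4% ± 5.83 against 53.0% ± 4.26 of the sum, with overlapping groups. ENST00000619513, with the coding sequence of 459 nt (153 codons), had 653, 834 and 679 counts against 550, 701 and 757, and its share was 46.6% ± 5.53 against 46.5% ± 4.22. The other 2 listed transcripts have no annotated coding sequence. Of these, ENST00000563563 had 12, 20 and 10 counts with siRNA-NC and 4, 4 and 5 with si-AC010789.1.

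The KIAA0040 sum was 1362, 1627 and 1678 counts with siRNA-NC and 1290, 1525 and 1484 with si-AC010789.1, or 123 ± 2.61 CPM against 118 ± 4.88 CPM (log2 fold change −0.058, standard error 0.0511), with overlapping groups. The rising and falling transcripts share 1 junction, and all 2079 bases that only 1 of them holds belong to the rising transcript. Most of these lie in its last exon of 4160 nt, against 2194 nt in the falling transcript. ENST00000444639 and ENST00000619513 have the same last exon as the rising transcript, and ENST00000444639 also has the exon of 74 nt. The last exon and the exon of 74 nt therefore do not mark the rising transcript alone. Set against the falling transcript, ENST00000444639 and ENST00000619513, it has 39 bases at its 5′ end and 1 junction of its own. The rest of it is shared with them, so its counts still depend on how shared reads were divided. The transcripts without a coding sequence were not compared.

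**Figure D2:**
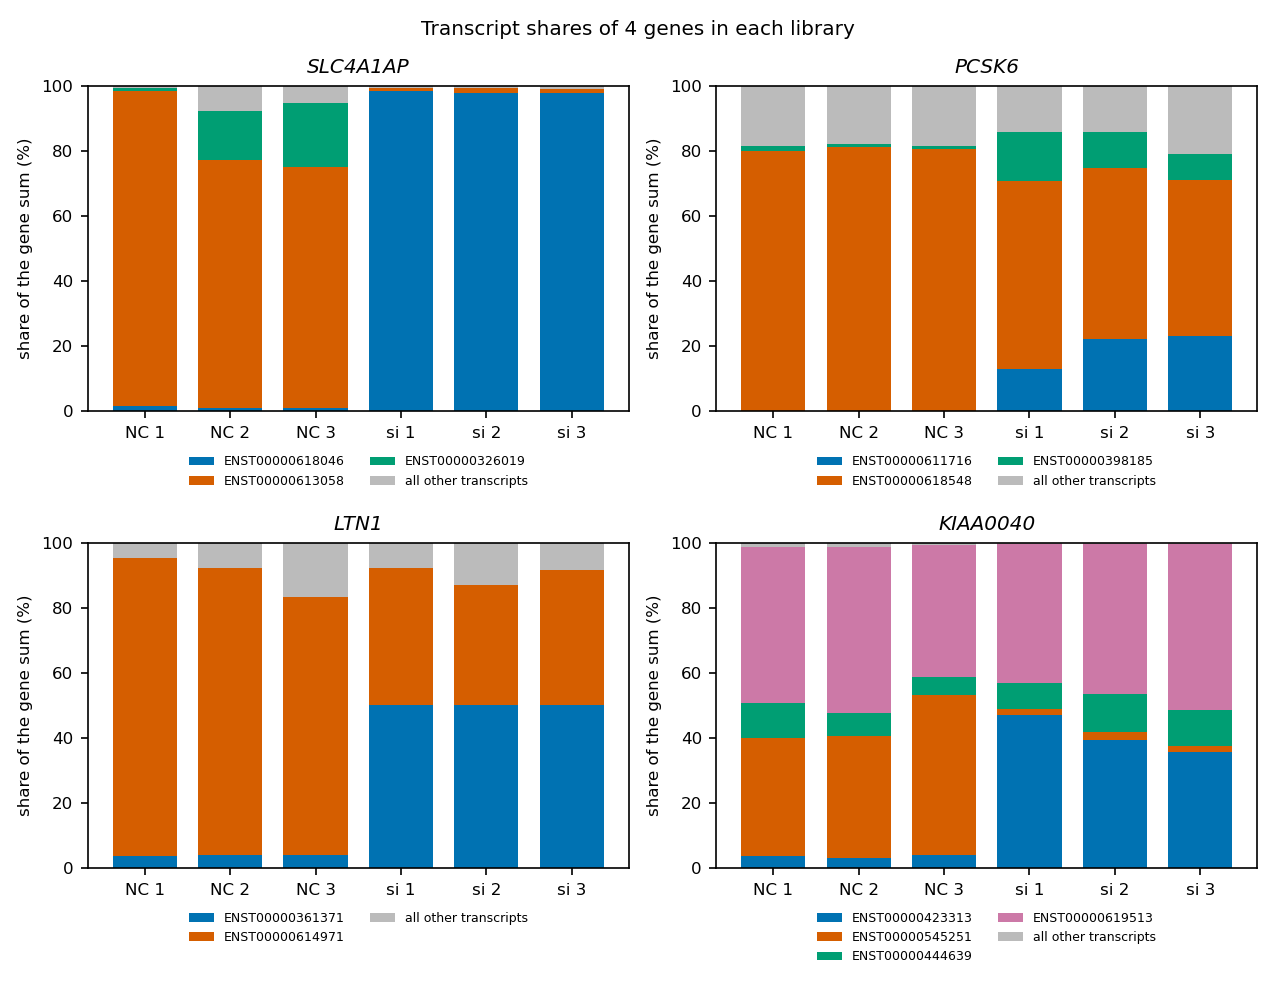
Share of each transcript in the summed count of its gene (y axis, percent) in the 3 siRNA-NC (NC) and 3 si-AC010789.1 (si) libraries (x axis); blue marks the rising and orange the falling transcript, green and pink further transcripts above a mean share of 10% in either group, and grey all others. Blue fills 97.8% to 98.4% of the SLC4A1AP bars and 50% to 50.23% of the LTN1 bars with si-AC010789.1, and at most 4.17% of the bars of any gene with siRNA-NC.

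**Figure D3:**
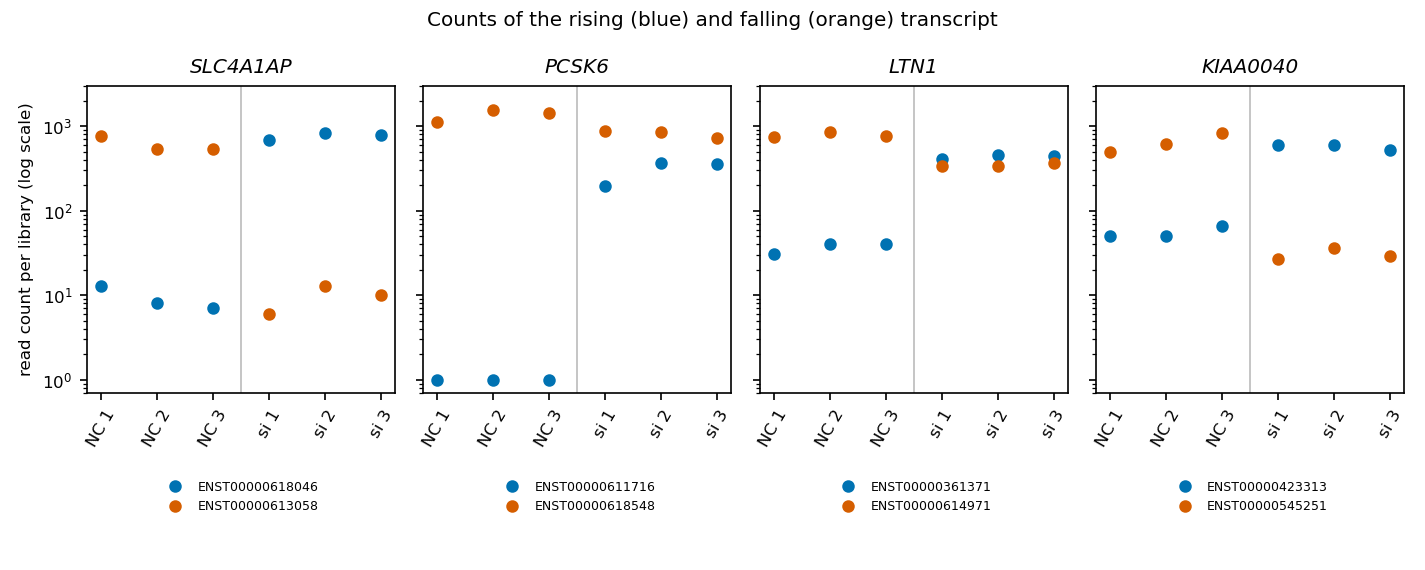
Read counts (y axis, log scale) of the rising (blue) and falling (orange) transcript of each gene in the 3 siRNA-NC (NC) and 3 si-AC010789.1 (si) libraries (x axis). In PCSK6 the rising transcript has 1 count in each siRNA-NC library and stays below the falling one with si-AC010789.1, while in SLC4A1AP, LTN1 and KIAA0040 the falling one is higher in every siRNA-NC library and the rising one in every si-AC010789.1 library.

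The gene sums of the 4 genes overlapped between the groups, whereas 25.1% of the 13764 genes tested had sums in CPM that did not. None of the 4 sums had an adjusted p under 0.05 in edgeR's quasi-likelihood test, which 0.944% of all genes had and which DESeq2 gave for 3.79%. Nothing is read from this, since steady sums were part of the choice.

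**Figure D4:**
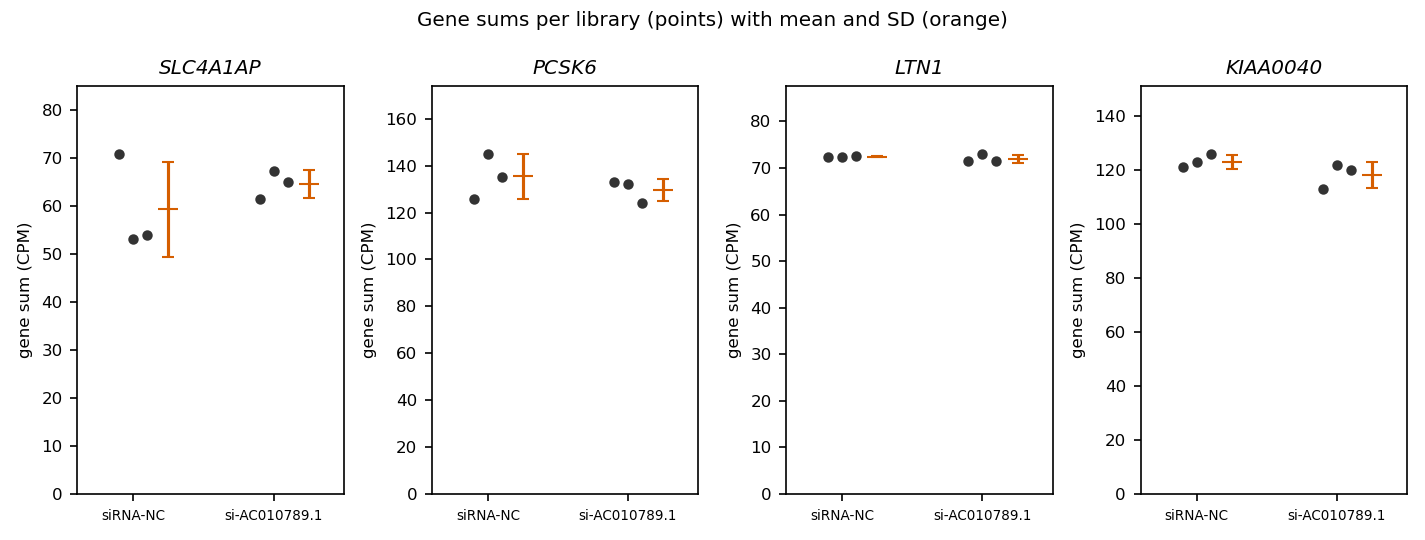
Summed counts of each gene scaled to library size (y axis, CPM) in the 3 siRNA-NC and 3 si-AC010789.1 libraries (points), with the mean and SD of each group beside them in orange. The points of the groups overlap in all 4 genes, and siRNA-NC replicate 1 is the highest SLC4A1AP library.

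Over all 36 listed transcripts of the 4 genes, the shares of 12 did not overlap between the groups, beside 9.7% of the 85613 transcripts of all genes that had at least 50 mean counts and at least 2 listed transcripts. Of the 36, 18 passed the filter on low counts, and 5 of these were called in edgeR's test over all transcripts, beside 0.0135% (6 of 44319) of all transcripts tested. These were the rising transcripts of all 4 genes and the falling one of KIAA0040. The sixth call was ENST00000542935 of CEMIP2, a cell surface hyaluronidase gene, with 1721, 2024 and 2061 counts with siRNA-NC and none with si-AC010789.1. DESeq2 called 10 of the 18, beside 1.52% of all, and added the other 3 falling transcripts and ENST00000398185 and ENST00000622483 of PCSK6. The edgeR calls were fragile: ENST00000618046 of SLC4A1AP was the 1 transcript of the 4 genes called without siRNA-NC replicate 1 and ENST00000611716 of PCSK6 the 1 called without si-AC010789.1 replicate 1, and none was called with any other library left out or without the filter. They come from the contrast that chose the genes and add no support to it.

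Transcript shares often varied within a group. Over 10383 genes with at least 50 mean counts and at least 2 listed transcripts, the widest range of any transcript share among 3 libraries of the same group had a median of 17.0 percentage points with siRNA-NC and 16.9 with si-AC010789.1, and it reached 20 points in 44.9% and 44.7% of genes. In SLC4A1AP it was 22.9 points with siRNA-NC and 0.688 with si-AC010789.1. PCSK6 had 5.13 and 10.2, LTN1 12.4 and 5.00, and KIAA0040 13.1 and 11.3. A wider range than that of SLC4A1AP was found in 40.6% of genes with siRNA-NC and in 95.6% with si-AC010789.1. Each share of a switching transcript had a 95% Wilson interval of 0.14 to 3.42 points on either side, which covers counting error only, since reads of amplified fragments are not independent molecules.

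A share gap, the distance between the lowest share in one group and the highest in the other, places the 4 genes among all. The widest gap of a gene was at least 20 percentage points, with an absolute log2 fold change of the sum under 0.5, in 102 of the 10383 genes (0.982%). SLC4A1AP had the second widest gap of all 10383 (96.1 points), LTN1 was at rank 19 (45.8 points), KIAA0040 at rank 42 (33.9 points) and PCSK6 at rank 90 (22.5 points). Counted per kilobase of transcript, the gaps were, in the same order, 96.1, 41.3, 42.8 and 18.5 points, so PCSK6 was then under 20 points.

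**Figure D5:**
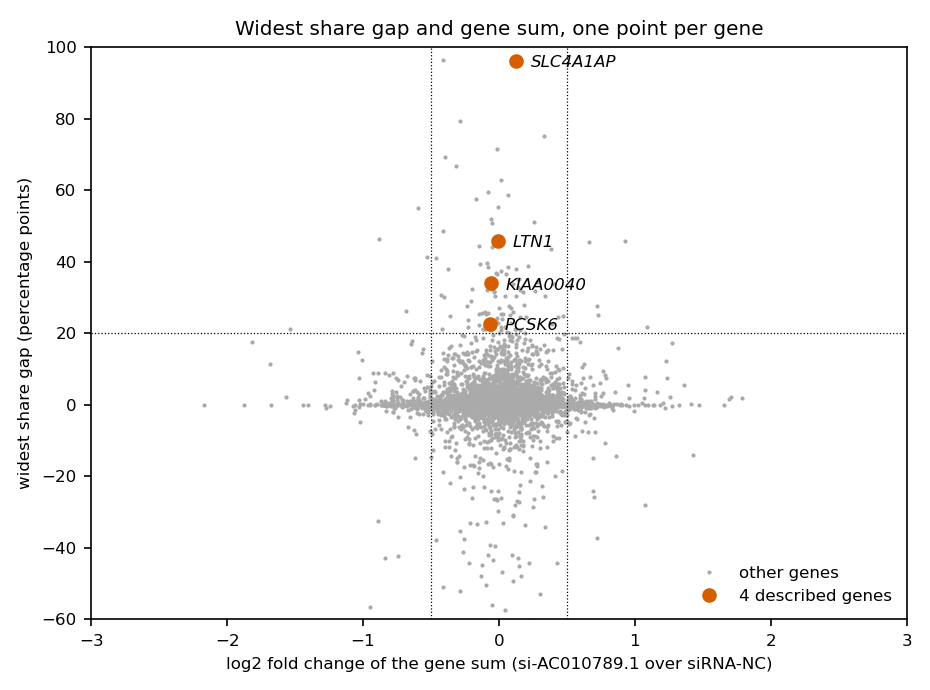
Widest share gap of a gene between the groups (y axis, percentage points, negative where shares overlap) against the log2 fold change of its gene sum (x axis, si-AC010789.1 over siRNA-NC); each point is a gene, 10369 of 10383 lie within the axes, and dotted lines mark 20 points and a fold change of 0.5 in either direction. The 4 genes (orange) lie near 0 on the x axis and above the dotted line, with SLC4A1AP at 96.1 points.

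Among the 102 genes with a gap of at least 20 points and a fold change under 0.5, 5 others had the widest gaps over the 6 libraries. These were MPP7, FAN1, CDH12, ZNF142 and DGLUCY. Their gene sums had log2 fold changes of −0.411, −0.284, 0.331, −0.0132 and −0.393, in that order. All but that of ZNF142 were further from steady than the sums of the 4 genes. In MPP7, which encodes a scaffold protein of cell junctions, ENST00000337532 had 0 counts in each siRNA-NC library, against 422, 376 and 397 with si-AC010789.1, while ENST00000375732 had 562, 609 and 555 against 3, 3 and 0. As in KIAA0040, the coding sequence of the pair is the same. In FAN1, which encodes a DNA repair nuclease, the coding ENST00000362065 had 0, 0 and 4 counts against 240, 272 and 236, and ENST00000565280, annotated for nonsense-mediated decay, 232, 288 and 338 against 0, 2 and 0. The gaps of CDH12, ZNF142 and DGLUCY were 75, 71.5 and 69.2 points. In those 3 genes the pair differed in its annotated junctions and coding sequence, and the rising transcript was a retained-intron one in CDH12 and one annotated for nonsense-mediated decay in ZNF142.

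Pairs with identical splice junctions, as in SLC4A1AP and LTN1, made up 6 of the 102 genes with a wide gap (5.88%), against 97 of the other 10281 (0.943%). Where both transcripts were coding, the same coding sequence, as in KIAA0040, was found in 21 of 86 (24.4%) and in 1142 of 6869 (16.6%). SLC4A1AP and LTN1 are among the 6 and KIAA0040 among the 21, so these shares are descriptions.

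Related genes were read from 3 hand-written lists, each with 1 of the 4 genes in it. SLC4A1AP stands in its list only through its first described binding partner, SLC4A1. Ribosome-associated quality control, the pathway of LTN1, is represented by 32 genes, all tested. In edgeR none had an adjusted p under 0.05, 8 had an unadjusted p under 0.05, beside 17.2% (2361 of 13764) of all genes, and the median log2 fold change was 0.060 against −0.00059 over all genes. The extremes were UBE2D1, a ubiquitin-conjugating enzyme, at 15.7 ± 0.713 CPM with siRNA-NC and at 10.4 ± 0.515 CPM with si-AC010789.1 (log2 fold change −0.59, adjusted p = 0.0544), and RNF25, a ubiquitin ligase, at 10.2 ± 1.89 and 13.0 ± 4.33 CPM (0.34, adjusted p = 0.594). Of the 32, DESeq2 called 3, beside 3.79% of all genes: UBE2D1, KLHDC10 and NPLOC4, a cofactor of the VCP segregase. The last 2 were chosen for naming after their values were seen. The 31 genes other than LTN1 had share gaps of at most 10.4 points, the widest in RNF14.

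The proprotein convertase list, with PCSK6, its relatives and their substrates, had 22 of its 32 genes tested, with 7 at an unadjusted p under 0.05, beside 17.2% of all genes, and a median log2 fold change of −0.046. A pair of secreted factors of the TGF-β family fell. GDF15, a stress-induced factor, fell from 22.7 ± 2.76 to 11.3 ± 1.17 CPM, which is −1.0 on the log2 scale (SE 0.129, adjusted p = 0.0327 in edgeR). GDF11, a growth factor that convertases cleave, fell from 83.3 ± 7.29 to 54.9 ± 2.7 CPM, or −0.60 (SE 0.0834, adjusted p = 0.0396). The groups of both were separate, as were those of 25.1% of all genes. In edgeR 0.944% of all genes were called. Neither call was kept when any 1 library was left out, nor without the filter on low counts. DESeq2 called both, beside 3.79% of all genes. Share gaps of the 17 other genes of this list that could be compared were at most 10.3 points, in PDGFB.

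Of the list with SLC4A1AP, the SLC4 bicarbonate transporters, carbonic anhydrases and their partners, 14 of 32 genes were tested and none had an adjusted p under 0.05 in edgeR, with 6 at an unadjusted p under 0.05, beside the 17.2% of all genes. The median log2 fold change was −0.24. AHCYL1, a regulator of bicarbonate transporters and of IP3 receptors, had 175 ± 16.2 CPM with siRNA-NC and 121 ± 11.2 CPM with si-AC010789.1 (−0.53, adjusted p = 0.0659 in edgeR). It was the 1 gene of the list called by DESeq2, beside 3.79% of all genes. STK39, a kinase of ion cotransporters, had 25.1 ± 2.83 and 31.5 ± 2.06 CPM (0.33, adjusted p = 0.212). The 12 genes other than SLC4A1AP that could be compared had share gaps of at most 0.576 points.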

How the data were processed

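RNA of 3 siRNA-NC and 3 si-AC010789.1 samples of HCT116 cells was sequenced as paired-end TruSeq libraries. The deposited values are raw read counts, 1 whole number for each Ensembl transcript in each library. The submitters' processing notes name CASAVA 1.8, TopHat2 2.0.6 and the builds GRCh38 and mm10; the counting program, its annotation, the use of strand and how reads shared by transcripts were divided are not given in the sources used here, and that division bears directly on transcript shares. The study names Cuffdiff, which needs alignments and was not run. Groups came from the sample titles, which call the control samples only control, and the name siRNA-NC for them was taken from the study.

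Transcripts were matched to GENCODE v29 (GRCh38), which may differ from the authors' annotation; 98803 of 98886 matched, with 99.907% to 99.941% of the counts of a library, and the 83 unmatched ones stayed out of gene sums. Counts were summed per gene, and each transcript's share of its gene sum was taken in each library. Coding lengths exclude the stop codon. Coding sequences came from the annotated transcripts. All genes and all transcripts were fitted with edgeR 4.0.16 in R 4.3.3 (TMM, filterByExpr, quasi-likelihood test, Benjamini-Hochberg adjustment, threshold 0.05). The filter asked for about 10 counts, scaled to library size, in as many libraries as the smallest group held (3 in the main fit), and for 15 in total. A transcript could therefore pass through 1 group alone, as ENST00000611716 of PCSK6 did. Levels are CPM on TMM-scaled library sizes, and shares were computed in Python 3.11.15. Scripts were tested on simulated data. p-values measure only the spread between these samples. A count of 0 was given an upper limit of 3 counts.

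The 4 genes, the lists and the rules were chosen with earlier results of these data known. Transcripts were described in full where their mean share differed most in either direction in a gene or reached 10% in either group. From the lists, genes with an adjusted p under 0.05 and otherwise the largest rise and fall were named. Genes with overlapping exons were named too, as were the 5 others with the widest share gap among the 102 genes. A gene of the convertase list and a sequence are not reported here. Genes named beyond this were chosen after their values were seen. Alternatives were RLE size factors, DESeq2 1.42.0, no filter, the replicate number as a block, each library left out, counts per kilobase, only transcripts that pass the filter, pooled counts, and other minimums and gaps.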

Additional observations from a re-analysis of the deposited data

How the results depend on the processing

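Every one of the 8 switching transcripts kept the direction of its share difference (si-AC010789.1 minus siRNA-NC) under every alternative run, and 65 of 72 values moved by less than 1 SD. Counted per kilobase, the difference was 13.9 points for ENST00000611716 and −22.3 for ENST00000618548 of PCSK6, 42.7 for ENST00000361371 of LTN1 and −48.4 for ENST00000545251 of KIAA0040. With only the transcripts that pass the filter, it was 97.3 for ENST00000618046 and −97.3 for ENST00000613058 of SLC4A1AP and 46.8 for ENST00000361371. With 1 library left out, differences ranged from 96.6 to 97.0 and −85.3 to −73.9 points in SLC4A1AP, 17.7 to 22.8 and −30.5 to −25.7 in PCSK6, 46.0 to 46.2 and −49.7 to −43.5 in LTN1, and 33.9 to 39.6 and −41.3 to −34.7 in KIAA0040 (rising, then falling transcript). The fold changes of the 4 gene sums stayed within 1 SD, at 0.049 to 0.273, −0.110 to −0.013, −0.017 to −0.0034 and −0.078 to −0.025 with 1 library left out. The number of genes with a wide gap, 102, was 287 at a gap of 10 points and 234 to 256 with 1 library left out, where fewer libraries bound the gap.

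The number of called genes, 130 in edgeR, was 522 in DESeq2, 69 without the filter and 12 to 37 with 1 library left out. Called transcripts, 6 in edgeR, numbered 675 in DESeq2, 0 without the filter and 0 to 6 with 1 library left out. In the lists, DESeq2 called 3 quality control genes and 1 SLC4 gene against 0 in edgeR, and the 3 convertase genes became 1 without the filter and 0 with any 1 library left out; the cause was not tested. With the replicate number as a block, 0 genes, 0 transcripts and 0 convertase genes were called. The main fits did not pair libraries by number. Deviations of same-numbered libraries correlated at 0.090, 0.0027 and 0.00066 over genes and at 0.0155, 0.0099 and 0.0121 over transcripts. All were under the limit of 0.1 set for pairing. Not every library correlated best with its own number over genes, while each did over transcripts. With 3 libraries per group, such values cannot exclude a weak pairing. Low counts limit ENST00000611716 in siRNA-NC, where 1 count per library stands behind its share.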
